A study of Mus musculus with 14 samples.

Results

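The genes described here encode the machinery of the lysosome: 42 genes named by symbol, comprising subunits and accessory proteins of the vacuolar ATPase (V-ATPase), cathepsins, other lysosomal hydrolases, lumenal cofactors, membrane proteins and the regulator Tfeb. Of these, 38 had a named probe set among the 19505 gene symbols of the array. Atp6v0c, Glb1, Cd68 and Ctsd had none and are not analysed here. The members were chosen by function and not by a measured value, but with earlier results of these data known.

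The lysosome is the acidic compartment in which cells break down material taken up from outside or delivered by autophagy. The V-ATPase pumps protons across its membrane. Its membrane-embedded V0 part carries the protons, and its cytosolic V1 part hydrolyses ATP. The low pH activates cathepsins, which cut proteins, and hydrolases, which take apart glycans, glycolipids and lipid esters. In liver, hepatocytes and macrophages both hold many lysosomes, and lysosomal acid lipase frees the cholesterol of lipoproteins taken up by either cell.

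Adult male wild-type C57Bl6 mice received 1 of 2 diets for 2 weeks: CSAA, the control, or CDAA, a choline-deficient diet that here also supplied cholesterol, glucose and fructose. RNA came from primary hepatocytes (PH) freed by collagenase perfusion, with 3 arrays per diet, or from total liver (TL), a piece of caudal lobe taken after saline perfusion, with 4 arrays per diet. The submitters' design text calls the preparations independent. The 2 kinds of sample were extracted with different RNA kits, and their values look normalized as 2 sets, so levels were never compared between them. No transgene or sorted population was used.

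Values are log2 intensities on 14 Clariom S arrays, on which 22206 probe sets were tested. Array medians lay between 4.56 and 4.71 in hepatocytes and between 6.07 and 6.24 in liver. The highest values exceeded 16, the log2 limit of a 16-bit scanner, so sizes hold on the deposited scale only. Background was read from probe sets that target introns: a group counts as under background if each of its arrays falls below the array's own 95th percentile of these controls. That percentile was 6.84 to 8.01 in hepatocytes and 9.96 to 10.23 in liver. Where only the dimmer group is under background, a bound follows the difference as "at least": the brighter group's mean minus that percentile. Where both groups are, the size cannot be read.

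The label "hepatocyte" was checked against cell type markers. All 9 hepatocyte markers lay above background in each of the 4 groups, and their mean level was 17.88 to 18.25 in CSAA and 17.10 to 17.88 in CDAA hepatocyte preparations. The macrophage markers differed far more. Their mean level (8 genes) was 5.51 to 6.03 on the CSAA hepatocyte arrays, where 7 of the 8 were not above background. On the CDAA hepatocyte arrays it was 12.13 to 13.86, and none of the 8 was under background throughout. Endothelial markers (9 genes) went from 5.46–5.97 to 8.63–10.04 and stellate cell markers (6 genes) from 5.17–5.92 to 9.03–10.33. In liver the macrophage mean was 9.20 to 10.18 on CSAA and 11.84 to 12.48 on CDAA. Of the Kupffer cell markers 7 of 7, and of the recruited macrophage markers 8 of 8, rose in hepatocyte preparations, against 11.0% of all probe sets. Among these, Cd163 and Itgax were under background on every hepatocyte array. Neutrophil (9 genes), T and NK cell (8), B cell (3) and cholangiocyte (5) markers stayed mostly under background, with 7, 7, 3 and 4 of them there on every CDAA hepatocyte array. Of these lists 4, 3, 1 and 0 markers passed higher in hepatocyte preparations. The part of other cell types in the results below was not tested. In bulk samples such as these, a change in the number of cells of a type and a change in RNA per cell cannot be told apart.

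A larger share of the listed lysosomal genes than of all probe sets passed higher on CDAA in both kinds of sample. No member was called lower in either. In liver 13 of the 38 members (34.2%) rose, against 6.73% of all probe sets tested, and 0 fell, against 3.54% (limma, adjusted p under 0.05; 0 members were lower at an unadjusted p under 0.05). In hepatocytes 25 members (65.8%) rose, against 11.0% of all probe sets, and 0 fell, against 7.74% (1 was lower at an unadjusted p under 0.05, Npc1). All 13 members called in liver were also called in hepatocytes, and 13 passed in neither. The median member difference was 0.70 log2 units in liver and 1.38 in hepatocytes, against -0.09 and -0.13 over all probe sets tested.

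The number of calls depended on which arrays set the spread. Fitted on its own arrays, liver gave 24 members higher (63.2%, against 11.7% of all probe sets) and hepatocytes 14 (36.8%, against 6.53%), and all of the 14 were among the 24. The hepatocyte arrays varied more, with a root mean square deviation from the group mean of 0.363 to 0.594 log2 units against 0.229 to 0.320 in liver. A description without a test was the separation of arrays. Every CDAA array lay above every CSAA array for 26 members in liver (68.4%, against 13.1% of all probe sets) and for 21 in hepatocytes (55.3%, against 12.4%). No member had every CDAA array below every CSAA array.

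**Figure D1:**
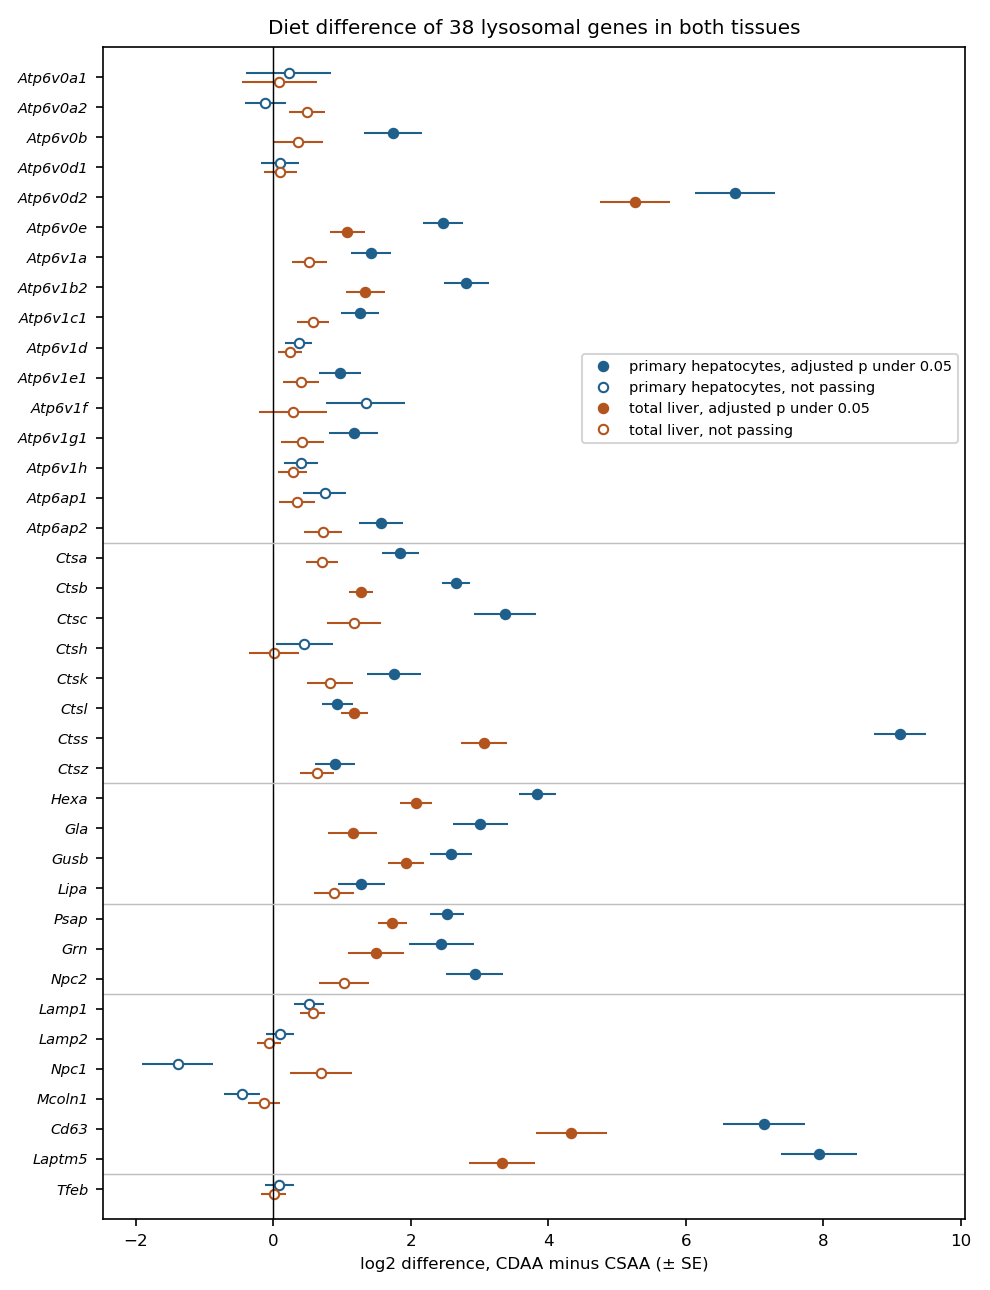
Diet difference (CDAA minus CSAA, log2 units, x axis) of the 38 measured lysosomal genes (y axis, grouped by class) in primary hepatocytes (blue) and total liver (orange); bars are the standard error and filled points passed an adjusted p of 0.05. The 25 filled hepatocyte points and the 13 filled liver points all lie above 0, with Ctss, Laptm5, Cd63 and Atp6v0d2 farthest out.

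Tfeb encodes the transcription factor that drives many lysosomal genes when it enters the nucleus. Its liver values were 6.41, 6.36, 6.37 and 6.603 on CSAA and 6.69, 6.73, 6.42 and 5.95 on CDAA, a difference of 0.01 ± 0.18 (SE; limma, adjusted p = 0.987). In hepatocytes they were 5.21, 5.22 and 5.21 on CSAA and 5.27, 5.28 and 5.35 on CDAA, a difference of 0.09 ± 0.21 (adjusted p = 0.815). All 14 values lay under the background percentile of their array, so these arrays set no level for Tfeb.

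TFEB and its relatives bind the 10-base CLEAR motif, a palindrome whose core is TCACGTGA and whose centre is the E-box CACGTG. These nested motifs read the same on both strands and were sought in the RefSeq promoter windows of GRCm38.p6, from 250 bases before to 50 after each start; 33 members had a window. No member held the whole CLEAR motif, which 0.37% of all 27025 genes held. The 8-base core stood in 7 of 33 members (21.2%, against 1.12% of all genes): Atp6v0d1, Atp6v0e, Atp6v1a, Ctsa, Ctsd, Gla and Mcoln1. The E-box stood in 11 (33.3%, against 8.09%), the other 4 being Atp6v0b, Ctsl, Glb1 and Lamp1. Printed here are promoters with the motif whose genes behaved differently, and that of Ctss, the member with the largest hepatocyte difference, which has none. Each runs 5′ to 3′ and capitals mark the 8-base core or, in Lamp1, the E-box.
Atp6v0e (chr17:26676146-26676424, plus strand): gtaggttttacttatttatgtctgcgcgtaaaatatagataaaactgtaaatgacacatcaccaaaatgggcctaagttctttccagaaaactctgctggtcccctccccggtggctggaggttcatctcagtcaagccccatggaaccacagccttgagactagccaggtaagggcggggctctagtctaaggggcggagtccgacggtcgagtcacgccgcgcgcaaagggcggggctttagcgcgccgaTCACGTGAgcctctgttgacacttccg
Ctsa (chr2:164833523-164833801, plus strand): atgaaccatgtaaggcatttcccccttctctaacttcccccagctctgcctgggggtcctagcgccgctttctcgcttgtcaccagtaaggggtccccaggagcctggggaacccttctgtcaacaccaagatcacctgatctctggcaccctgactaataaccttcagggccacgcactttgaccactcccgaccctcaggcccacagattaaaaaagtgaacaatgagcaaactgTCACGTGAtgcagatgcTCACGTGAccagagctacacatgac
Gla (chrX:134600977-134601255, minus strand): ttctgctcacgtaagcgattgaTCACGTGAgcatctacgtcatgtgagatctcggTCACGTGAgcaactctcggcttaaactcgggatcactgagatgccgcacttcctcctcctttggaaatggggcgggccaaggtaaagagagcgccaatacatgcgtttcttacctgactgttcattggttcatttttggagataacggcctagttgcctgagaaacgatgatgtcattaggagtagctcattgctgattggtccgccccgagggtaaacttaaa
Mcoln1 (chr8:3500269-3500547, plus strand): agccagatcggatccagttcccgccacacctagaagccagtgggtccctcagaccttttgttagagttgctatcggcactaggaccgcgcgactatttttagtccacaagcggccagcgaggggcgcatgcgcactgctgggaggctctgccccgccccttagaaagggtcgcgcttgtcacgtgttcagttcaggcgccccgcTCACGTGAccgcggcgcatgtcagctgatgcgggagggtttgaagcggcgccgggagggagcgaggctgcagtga
Lamp1 (chr8:13158911-13159189, plus strand): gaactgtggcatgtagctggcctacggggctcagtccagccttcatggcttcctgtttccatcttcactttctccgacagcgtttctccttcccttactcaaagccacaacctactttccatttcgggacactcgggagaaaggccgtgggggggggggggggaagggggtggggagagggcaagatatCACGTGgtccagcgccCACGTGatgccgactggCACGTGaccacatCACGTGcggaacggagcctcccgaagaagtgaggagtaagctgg
Ctss (chr3:95526536-95526814, plus strand): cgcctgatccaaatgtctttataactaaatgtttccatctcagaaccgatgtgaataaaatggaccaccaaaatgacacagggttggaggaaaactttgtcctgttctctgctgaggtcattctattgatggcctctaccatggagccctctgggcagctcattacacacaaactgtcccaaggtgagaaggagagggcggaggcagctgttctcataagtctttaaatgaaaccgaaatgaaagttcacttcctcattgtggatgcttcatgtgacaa

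Ctsa and Gla carry 2 cores each and Lamp1 carries 4 E-boxes. The 6 measured members with the core had a median difference of 0.62 in liver, where 2 rose, and of 1.63 in hepatocytes, where 4 rose. The 20 measured members with a window and no E-box had medians of 0.85 and 1.66, and 7 and 14 of them rose. Members with the core ran from -0.14 (Mcoln1) to 1.15 (Gla) in liver and from -0.46 (Mcoln1) to 3.01 (Gla) in hepatocytes. Those without an E-box, among them Ctss, Laptm5 and Cd63, ran from -0.06 to 4.33 and from 0.09 to 9.11. Atp6v0d2 had no window. A motif match is a description of the sequence only.

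**Figure D2:**
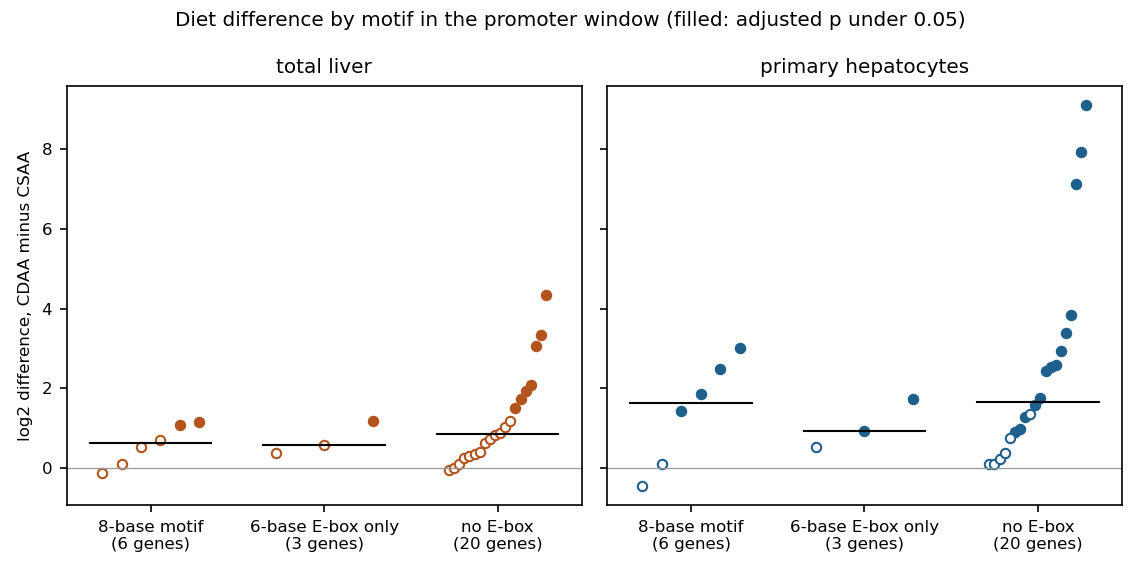
Diet difference (log2 units, y axis) of each measured member with a promoter window, by the longest motif found there (x axis), in total liver (left) and primary hepatocytes (right); points are genes, filled where the adjusted p was under 0.05, and bars are medians. The group without an E-box, the largest with 20 genes against 6 and 3, reaches the largest differences shown, 4.33 in liver and 9.11 in hepatocytes. Atp6v0d2 had no window and is not shown.

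Of the 16 measured V-ATPase genes, 3 rose in liver (18.8%, median 0.41) and 9 in hepatocytes (56.2%, median 1.21). Over all probe sets tested the shares were 6.73% and 11.0%. The change was uneven between paralogs of the d subunit, which joins the proton channel to the stalk. Atp6v0d2, the form known from osteoclasts and macrophages, was at 7.10, 5.57, 7.15 and 6.83 on CSAA and 12.66, 11.06, 12.17 and 11.83 on CDAA liver arrays. All CSAA arrays were under background, and the difference was 5.26 ± 0.51 (limma, adjusted p = 7.09e-06; at least 1.84 by the bound). In hepatocytes it was at 5.81, 6.54 and 4.14 against 11.64, 13.07 and 11.91, a difference of 6.71 ± 0.58 (adjusted p = 6.29e-07; at least 4.47). Atp6v0d1, the form found in most tissues, differed by 0.10 ± 0.24 in liver (adjusted p = 0.845) and 0.10 ± 0.27 in hepatocytes (adjusted p = 0.853), and its arrays overlapped between diets in both.

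The other subunits that rose in both kinds of sample were Atp6v0e, a small membrane subunit, and Atp6v1b2, the B subunit that helps bind ATP. In liver Atp6v0e was at 9.69, 9.92, 9.69 and 9.998 on CSAA and 11.27, 11.09, 10.61 and 10.65 on CDAA, a difference of 1.08 ± 0.25 (limma, adjusted p = 0.0108; at least 0.82, as CSAA was under background). Hepatocyte arrays read 8.12, 7.71 and 8.81 against 10.24, 10.78 and 11.03, a difference of 2.47 ± 0.29 (adjusted p = 1.27e-05). The diets did not overlap in either. Atp6v1b2 was at 10.81, 11.13, 10.82 and 10.73 on CSAA and 12.40, 12.31, 12.12 and 12.03 on CDAA liver arrays, a difference of 1.34 ± 0.28 (adjusted p = 0.0058). Its hepatocyte values were 9.17, 8.27 and 8.53 against 11.38, 12.29 and 10.71, a difference of 2.81 ± 0.33 (adjusted p = 1.27e-05). Again every CDAA array was above every CSAA array.

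A further 6 subunits passed in hepatocytes and not in liver with the shared spread. All 6 lost the call on the hepatocyte arrays alone (adjusted p from 0.0564 to 0.238), Atp6v1c1 and Atp6ap2 passed on the liver arrays alone, and the difference between the 2 effects passed for none of them. Atp6v1a, the catalytic A subunit, was at 7.69, 7.22 and 7.91 on CSAA and 8.93, 9.67 and 8.49 on CDAA hepatocyte arrays, a difference of 1.42 ± 0.29 (limma, adjusted p = 0.00219). Atp6v1c1, which bridges V1 and V0, was at 9.63, 9.44 and 10.33 against 10.46, 11.49 and 11.22, a difference of 1.26 ± 0.27 (adjusted p = 0.0035). For both, the diets did not overlap. Atp6ap2, an accessory protein also known as the prorenin receptor, was at 9.82, 8.82 and 9.32 against 10.36, 11.72 and 10.60, a difference of 1.57 ± 0.32 (adjusted p = 0.00237). Atp6v0b, a proton-carrying ring subunit, was at 7.75, 7.597 and 8.84 against 8.63, 10.06 and 10.71, a difference of 1.74 ± 0.42 (adjusted p = 0.00793). Its lowest CDAA array lay below its highest CSAA array. The stalk subunits gave the smallest called values, and their diets overlapped too. Atp6v1e1 was at 11.05, 10.90 and 11.93 against 11.53, 12.50 and 12.76, a difference of 0.97 ± 0.30 (adjusted p = 0.0359). Atp6v1g1 was at 9.45, 9.60 and 10.31 against 9.99, 11.80 and 11.08, a difference of 1.17 ± 0.36 (adjusted p = 0.0336). Both calls were lost on leaving out CSAA replicate 1 or 2 or CDAA replicate 2 or 3. In liver these 6 differed by 0.36 to 0.73, with adjusted p from 0.12 to 0.589.

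The remaining 6 V-ATPase genes besides Atp6v0d1 passed in neither: Atp6v0a1, Atp6v0a2, Atp6v1d, Atp6v1f, Atp6v1h and Atp6ap1. Their liver differences ran from 0.09 (Atp6v0a1) to 0.50 (Atp6v0a2) and their hepatocyte differences from -0.12 (Atp6v0a2) to 1.34 (Atp6v1f). Atp6v0a2, Atp6v0b and Atp6v1f were not above background on any liver array. With array weights Atp6v1d, Atp6v1f and Atp6ap1 passed, higher on CDAA, in hepatocytes (limma, adjusted p = 0.0414, 0.00212 and 0.00206). None did so on the hepatocyte arrays alone. Atp6v0a2 passed higher on the liver arrays alone (adjusted p = 0.0478).

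Of the 8 measured cathepsins, 3 rose in liver (37.5%, median 0.995) and 7 in hepatocytes (87.5%, median 1.80), against 6.73% and 11.0% of all probe sets. Ctss, a cysteine protease of antigen-presenting cells, changed most. In liver it was at 10.90, 10.49, 11.36 and 10.71 on CSAA and 14.45, 13.82, 13.55 and 13.91 on CDAA, a difference of 3.06 ± 0.33 (limma, adjusted p = 2e-05). In hepatocytes it went from 5.73, 5.84 and 6.07, all under background, to 13.89, 15.67 and 15.42. That is a difference of 9.11 ± 0.38 (adjusted p = 3.35e-10), at least 7.25 by the bound, and the largest of any member.

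Ctsb, a cysteine protease found in most cells, was well above background in all groups. It was at 15.97, 15.98, 15.93 and 15.89 on CSAA and 17.36, 17.15, 17.20 and 17.16 on CDAA liver arrays, a difference of 1.28 ± 0.18 (limma, adjusted p = 0.000222). On hepatocyte arrays it read 15.69, 15.38 and 15.57 against 18.01, 18.67 and 17.95, a difference of 2.66 ± 0.21 (adjusted p = 1.76e-07). Ctsl, another broadly expressed cysteine protease, was the only called member with the larger value in liver. It was at 15.34, 15.68, 15.62 and 15.69 against 16.98, 17.02, 16.49 and 16.54 in liver, a difference of 1.18 ± 0.20 (adjusted p = 0.000929). Among hepatocyte arrays the values were 14.83, 14.78 and 14.81 against 16.08, 15.77 and 15.35, a difference of 0.93 ± 0.23 (adjusted p = 0.00834). The diets did not overlap for either gene. The hepatocyte call of Ctsl was lost on the hepatocyte arrays alone.

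With the shared spread, Ctsa, Ctsc, Ctsk and Ctsz passed in hepatocytes and not in liver. On the liver arrays alone all 4 passed, on the hepatocyte arrays alone Ctsk and Ctsz did not, and the difference between the 2 effects passed for none of the 4. Ctsa, which also shields other hydrolases from breakdown, was at 12.53, 11.85 and 12.57 on CSAA and 14.34, 14.59 and 13.56 on CDAA, a difference of 1.85 ± 0.27 (limma, adjusted p = 0.00011). Ctsc, which activates granule proteases, was at 13.998, 11.81 and 12.73 against 16.05, 17.02 and 15.61, a difference of 3.38 ± 0.45 (adjusted p = 4.82e-05). Neither overlapped between diets. Ctsz, a carboxypeptidase, was at 13.54, 12.84 and 12.43 against 14.45, 13.61 and 13.43, a difference of 0.89 ± 0.29 (adjusted p = 0.0427). Its arrays overlapped, and the call was lost on leaving out CSAA replicate 2 or 3 or CDAA replicate 1 or 2. Ctsk, the collagen-cutting protease of osteoclasts, was at 3.18, 3.505 and 4.04 against 4.31, 5.85 and 5.83, a difference of 1.76 ± 0.39 (adjusted p = 0.00425). All of its arrays were under background, so its size cannot be read. In liver Ctsa differed by 0.71 ± 0.23, Ctsc by 1.17 ± 0.39, Ctsz by 0.64 ± 0.25 and Ctsk by 0.82 ± 0.34, none passing with the shared spread. Ctsh, an aminopeptidase, differed by 0.01 ± 0.36 in liver and 0.45 ± 0.42 in hepatocytes. Its hepatocyte value passed, higher on CDAA, with array weights and without CDAA replicate 1 (limma, adjusted p = 0.00721 and 0.0296).

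All 4 measured hydrolases rose in hepatocytes (median 2.80) and 3 in liver (75%, median 1.54), against 11.0% and 6.73% of all probe sets. Hexa, a subunit of the hexosaminidase that degrades GM2 ganglioside, was at 10.16, 10.30, 10.51 and 9.93 on CSAA and 12.78, 12.01, 12.19 and 12.22 on CDAA liver arrays, a difference of 2.07 ± 0.23 (limma, adjusted p = 2.45e-05). The hepatocyte values were 8.76, 8.50 and 8.91 against 12.04, 12.87 and 12.79, a difference of 3.84 ± 0.26 (adjusted p = 5.13e-08). Each CDAA array exceeded each CSAA array by over 1 unit in both. Gusb, beta-glucuronidase, was at 8.10, 8.01, 8.15 and 7.85 against 10.27, 9.64, 10.01 and 9.91 in liver, a difference of 1.93 ± 0.27 (adjusted p = 0.000192). In hepatocytes it was at 7.12, 6.66 and 5.75 against 9.35, 9.32 and 8.62, a difference of 2.59 ± 0.31 (adjusted p = 1.44e-05; at least 1.35). The CSAA arrays were under background in both, and so were 3 of the 4 CDAA liver arrays, so the liver size cannot be read.

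Gla, alpha-galactosidase, was at 8.67, 8.88, 8.37 and 8.19 on CSAA and 10.15, 9.34, 9.58 and 9.65 on CDAA liver arrays, a difference of 1.15 ± 0.35 (limma, adjusted p = 0.048). Most of these values were under background, and the liver call was lost on leaving out any of the 8 liver arrays. On hepatocyte arrays it read 7.16, 7.02 and 7.55 against 9.05, 11.14 and 10.57, a difference of 3.01 ± 0.40 (adjusted p = 5.12e-05; at least 2.51). Lipa, the lysosomal acid lipase that splits cholesteryl esters and triglycerides, was at 14.66, 14.26 and 13.13 against 15.84, 15.42 and 14.63 in hepatocytes, a difference of 1.28 ± 0.34 (adjusted p = 0.015). Its lowest CDAA array was below its highest CSAA array, and the call was lost without CSAA replicate 3 or CDAA replicate 2 and on the hepatocyte arrays alone. In liver Lipa differed by 0.89 ± 0.30 (adjusted p = 0.073), with every CDAA array above every CSAA array, and passed on the liver arrays alone.

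The lumenal cofactors rose together in hepatocytes, where all 3 passed (median 2.53). In liver 2 passed (66.7%, median 1.497). The shares of all probe sets were 11.0% and 6.73%. Psap, the precursor of the saposins that present glycolipids to hydrolases, was at 14.68, 14.67, 14.46 and 14.63 on CSAA and 16.60, 16.18, 16.39 and 16.18 on CDAA liver arrays, a difference of 1.73 ± 0.21 (limma, adjusted p = 6.82e-05). Among hepatocyte arrays the values were 14.18, 14.42 and 13.70 against 17.03, 16.68 and 16.18, a difference of 2.53 ± 0.24 (adjusted p = 1.85e-06). Grn, the progranulin gene, was at 13.78, 13.55, 13.96 and 14.11 against 15.48, 15.29, 15.37 and 15.24 in liver, a difference of 1.497 ± 0.41 (adjusted p = 0.028). This call was lost on leaving out any liver array but CSAA replicate 4. In hepatocytes Grn was at 13.29, 12.91 and 11.80 against 16.22, 15.33 and 13.78, a difference of 2.44 ± 0.47 (adjusted p = 0.00148), a call lost on the hepatocyte arrays alone. Npc2, which hands cholesterol from the lumen to NPC1, was at 7.97, 8.28 and 8.42 against 9.87, 12.00 and 11.59 in hepatocytes, a difference of 2.93 ± 0.42 (adjusted p = 9e-05). In liver it differed by 1.03 ± 0.36 (adjusted p = 0.0874; at least 0.19) and passed on the liver arrays alone. The diets did not overlap for any of the 3 in either kind of sample.

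The membrane proteins split. Of 6 measured, Cd63 and Laptm5 (33.3%) rose in both kinds of sample, and the other 4 passed in neither. Among all probe sets, 6.73% rose in liver and 11.0% in hepatocytes. Cd63, a tetraspanin of late endosomes, was at 8.25, 7.85, 8.50 and 8.56 on CSAA and 13.78, 11.71, 12.54 and 12.46 on CDAA liver arrays, a difference of 4.33 ± 0.52 (limma, adjusted p = 5.59e-05; at least 2.54). The hepatocyte values were 4.55, 4.90 and 4.93 against 10.11, 12.92 and 12.77, a difference of 7.14 ± 0.60 (adjusted p = 4.2e-07; at least 4.19). Its CSAA arrays were all under background. Laptm5, a lysosomal protein of blood-derived cells, was at 9.75, 9.42, 10.33 and 10.11 against 13.37, 13.23, 13.07 and 13.26 in liver, a difference of 3.33 ± 0.48 (adjusted p = 0.000277). Of its CSAA liver arrays, 3 of 4 were under background. Hepatocyte arrays read 4.70, 6.68 and 5.56, under background, against 14.43, 14.34 and 11.98, a difference of 7.94 ± 0.55 (adjusted p = 5.79e-08; at least 5.84).

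Lamp1 and Lamp2, the most abundant glycoproteins of the lysosomal membrane, did not pass. Lamp1 was at 15.10, 15.08, 15.17 and 15.09 on CSAA and 15.82, 15.44, 15.82 and 15.65 on CDAA liver arrays, a difference of 0.57 ± 0.18 (limma, adjusted p = 0.0628) with no overlap; it passed on the liver arrays alone. In hepatocytes it was at 15.30, 15.44 and 14.93 against 15.92, 15.36 and 15.95, a difference of 0.52 ± 0.21 (adjusted p = 0.107). That value passed without CDAA replicate 2 (adjusted p = 0.0404). Lamp2 was at 17.54, 17.56, 17.42 and 17.51 against 17.38, 17.32, 17.52 and 17.57 in liver, a difference of -0.06 ± 0.18 (adjusted p = 0.88). In hepatocytes Lamp2 was at 17.64, 17.58 and 18.18 against 17.75, 18.18 and 17.75, a difference of 0.10 ± 0.21 (adjusted p = 0.794). Its diets overlapped in both. Npc1, the membrane cholesterol exporter, was at 10.17, 9.73 and 9.32 on CSAA and 9.79, 8.46 and 6.79 on CDAA hepatocyte arrays, a difference of -1.39 ± 0.52 (adjusted p = 0.0751). In liver it differed by 0.69 ± 0.45 (adjusted p = 0.381), and the difference between the 2 effects did not pass (2.08 ± 0.68, adjusted p = 0.172). The hepatocyte value passed, lower on CDAA, with centring, quantile normalization, array weights, a replicate block or without CDAA replicate 1 (adjusted p from 0.00083 to 0.0393). The difference between the effects passed with array weights, the block or without that array (adjusted p from 0.00191 to 0.0398), and the liver value passed on the liver arrays alone and with array weights. Mcoln1, the calcium channel mucolipin, differed by -0.14 ± 0.23 in liver and -0.46 ± 0.27 in hepatocytes. Its hepatocyte value passed, lower on CDAA, with array weights and without CDAA replicate 1 (limma, adjusted p = 0.0426 and 0.0481).

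**Figure D3:**
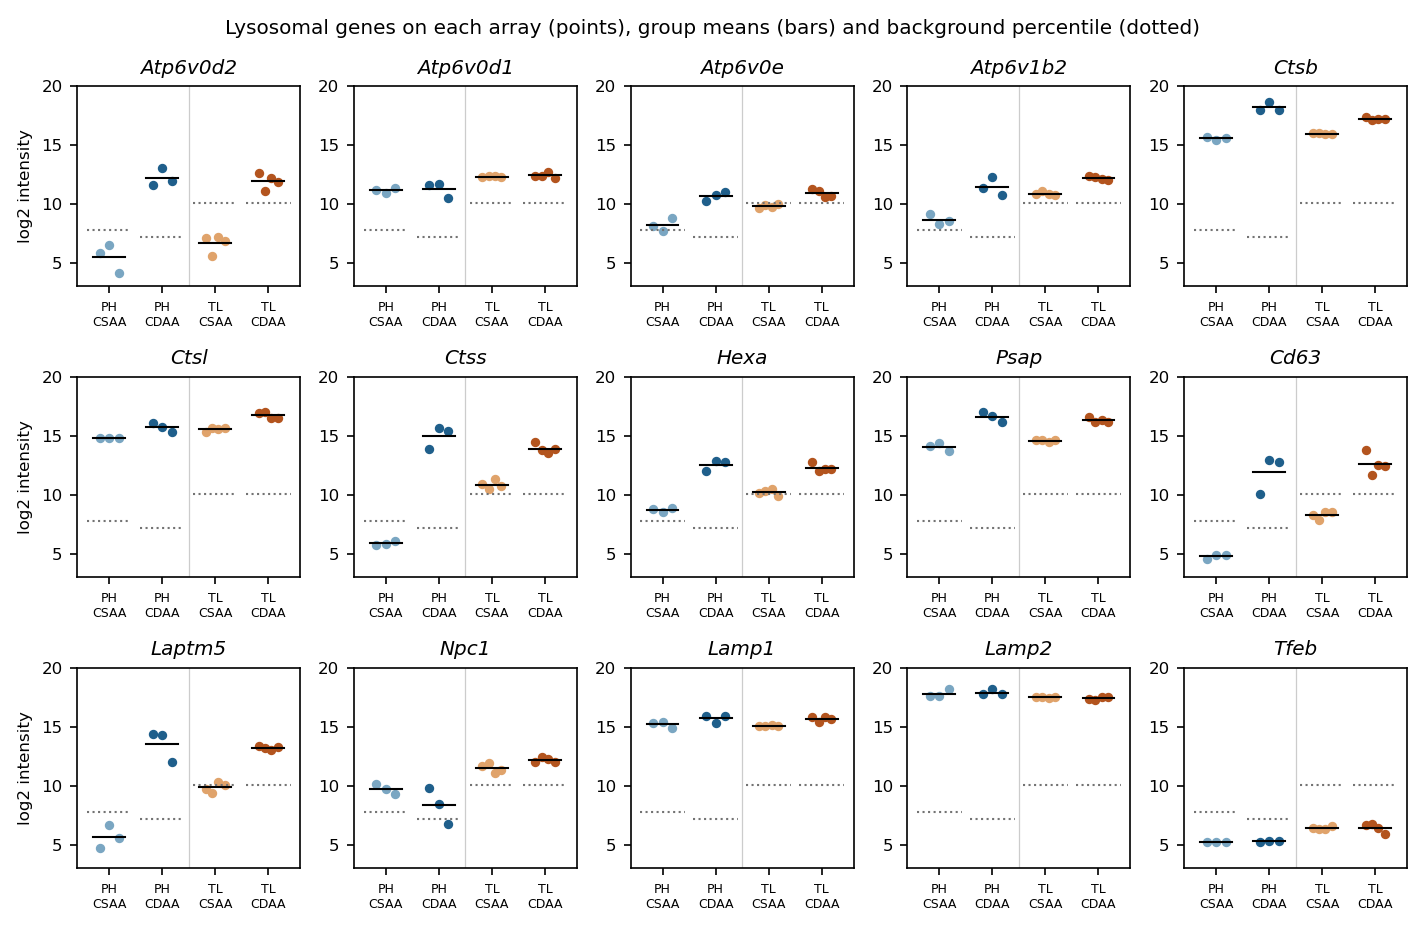
log2 intensity (y axis) of 15 lysosomal genes on each array (points) in the 4 groups (x axis), with group means (bars) and the mean background percentile of the group (dotted). The group means of Atp6v0d2, Ctss, Cd63 and Laptm5 lie below or within 1 unit of the dotted line on CSAA and above it on CDAA. Atp6v0d1 and Lamp2 overlap between diets. Levels are not comparable between PH and TL.

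The hepatocyte difference was above the liver difference for 32 of 38 members. The same share over all probe sets is not given. Liver effect minus hepatocyte effect had a median of -0.77 over the members and 0.02 over all probe sets. Over all probe sets the median absolute diet difference was 0.38 in hepatocytes and 0.28 in liver. A test of the difference between the 2 effects passed for 4 members, all lower in liver (10.5%, against 2.36% of all probe sets). These were Ctss (-6.05 ± 0.51, limma, adjusted p = 8.47e-06), Laptm5 (-4.61 ± 0.73, adjusted p = 0.00176), Hexa (-1.77 ± 0.35, adjusted p = 0.00938) and Ctsb (-1.38 ± 0.27, adjusted p = 0.00919). With the hepatocyte bound in place of the fitted value, Ctss differed by -4.19 and Laptm5 by -2.52. The liver side was not bounded, although 3 of 4 CSAA liver arrays of Laptm5 and 1 of 4 of Hexa were under background. The part of the higher liver background in these differences was not tested. Without CDAA hepatocyte replicate 1 the test passed, lower in liver, for 13 members, and without replicate 3 for 7. Over all probe sets, passing in either direction rose too, from 570 with all arrays to 2265 and 632.

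Several marker lists had differences of the same direction. The same test passed, lower in liver, for 7 of 8 macrophage, 6 of 7 Kupffer cell, 7 of 9 endothelial and 5 of 6 stellate cell markers. It passed for 3 of 8 recruited macrophage markers and for 0 of the neutrophil, T and NK cell, B cell and cholangiocyte markers. Lyz2, the lysozyme of macrophages, differed by 3.59 ± 0.47 in liver and 10.26 ± 0.54 in hepatocytes (at least 9.10), and the Kupffer cell receptor Clec4f by 1.06 ± 0.53 and 8.36 ± 0.61 (at least 6.18). Of the 9 hepatocyte markers, 2 passed in hepatocyte preparations and 0 in liver: Cps1 fell by 1.35 (SE 0.27) and Hnf4a fell by 1.72 (SE 0.46). CDAA hepatocyte replicate 1 had the lowest macrophage level of its group (12.13, against 13.86 and 13.48) and was the lowest CDAA array for 13 of the 25 called members and the highest for 7. In liver CDAA replicate 1 had the highest macrophage level (12.48) and was the highest CDAA array for 12 of the 13 called members. That liver array also had the highest stellate cell level (10.33) and the highest median over tested probe sets (6.06). Its Kupffer cell level (10.35) was not the highest, and its endothelial level (9.73) was the lowest of its group. CDAA hepatocyte replicate 1 had the highest endothelial level of its group (10.04). The share of all probe sets highest or lowest on these arrays is not given. The part of these cell types in the lysosomal values was not tested.

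**Figure D4:**
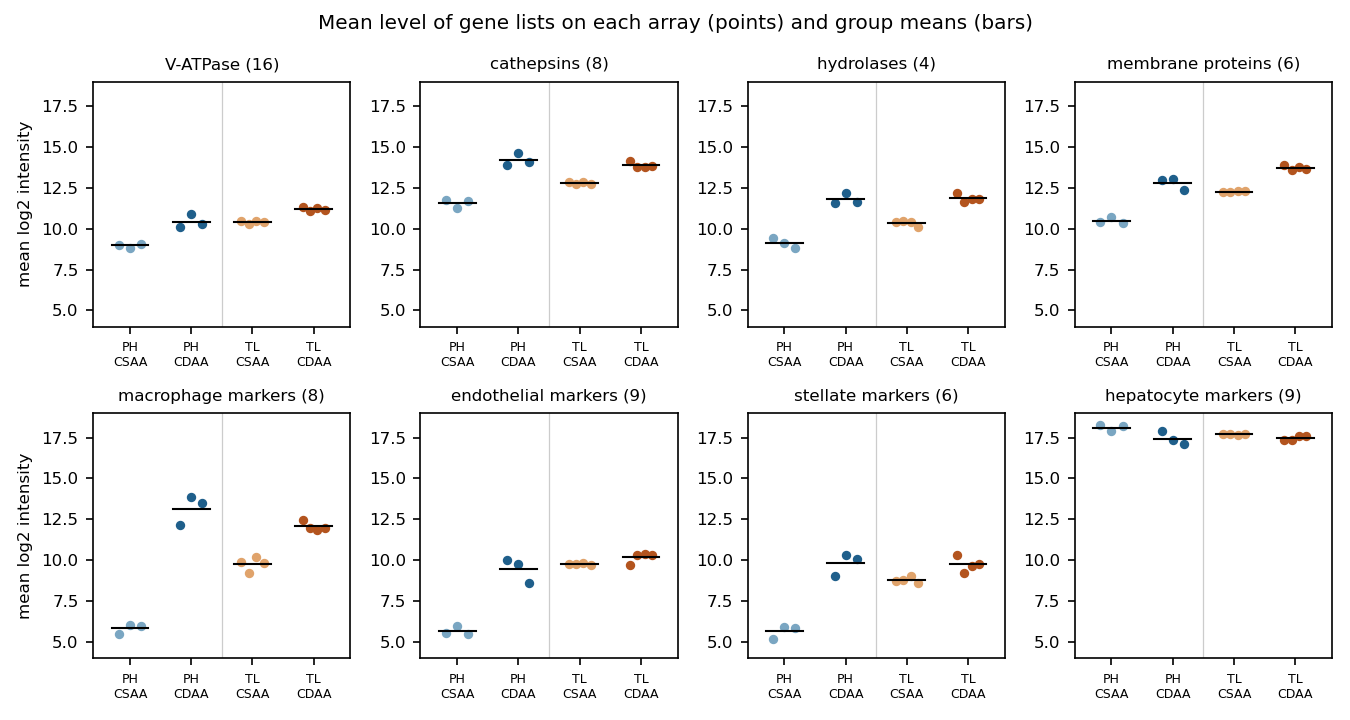
Mean log2 intensity (y axis) of 4 classes of lysosomal genes (top) and 4 marker lists (bottom) on each array (points), with group means (bars); the number of genes is in each title. The lysosomal classes and the macrophage, endothelial and stellate markers are higher on the CDAA than on the CSAA hepatocyte arrays, while the hepatocyte markers are not.

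Other genes of the pathway, in 9 lists chosen by function with earlier results known, had list medians of at most 0.48 in liver and 0.61 in hepatocytes. Among 29 other hydrolases, 2 rose in liver and 9 in hepatocytes, with medians of 0.31 and 0.52. The shares were 6.9% and 31%, against 6.73% and 11.0% of all probe sets, so the liver share is that of the background. Asah1, acid ceramidase, rose by 2.75 ± 0.40 in hepatocytes. Galns, a sulfatase, passed in liver with every array under background. Among 8 other V-ATPase subunits, Tcirg1, the a3 form of osteoclasts, alone rose in liver (1.16 ± 0.35, at least 0.11) and in hepatocytes (1.87 ± 0.41). Of 9 assembly factors and regulators, Ncoa7 passed in both, higher on CDAA, with all 14 arrays under background, and Dmxl1 and Oxr1 fell in hepatocytes. The shares rising were 12.5% of the other subunits and 11.1% of the regulators in both kinds of sample, and the hepatocyte shares are near that of all probe sets.

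Of 6 other cathepsins and legumain, Lgmn, the asparagine-specific protease that matures cathepsins, rose by 2.30 ± 0.23 in liver and 6.47 ± 0.26 in hepatocytes. Ctsf passed in liver, lower on CDAA, with all arrays under background. As many of these 6 genes fell as rose in liver: 2 passed higher and 2 lower, against 6.73% and 3.54% of all probe sets. Of 8 cathepsin inhibitors, 2 rose in liver and 3 in hepatocytes: Cstb, cystatin B, by 2.82 ± 0.44 (at least 2.35) and 3.61 ± 0.50, Serpinb6a by 2.18 ± 0.48 (at least 0.67) and 6.42 ± 0.55 (at least 4.64), and Cst3, cystatin C, by 1.98 ± 0.34 in hepatocytes. Of 19 other membrane proteins, 3 rose in liver and 7 in hepatocytes, led by Slc11a1, the phagosomal metal transporter of macrophages (3.27 ± 0.28, at least 2.19, and 7.09 ± 0.33, at least 4.91). Of 7 genes of mannose 6-phosphate and sortilin sorting, Sort1 fell in both (by 1.02 and by 1.19) and M6pr rose in hepatocytes (1.39 ± 0.20). The shares rising in liver were 33.3% (cathepsins and legumain), 25% (inhibitors), 15.8% (membrane proteins) and 14.3% (sorting), against 6.73% of all probe sets. In hepatocytes they were 16.7%, 37.5%, 36.8% and 14.3%, against 11.0%.

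Among 17 genes of the TFEB family, Ragulator and mTORC1 signalling, 4 rose in each kind of sample (23.5%). Over all probe sets the shares were 6.73% in liver and 11.0% in hepatocytes. Of the 17, 1, Fnip2, passed lower in hepatocytes, with 5 of 6 arrays under background. Tfec, the family member of macrophages, rose by 6.39 ± 0.48 in hepatocytes (at least 1.95) and passed in liver with every array under background. Of 12 autophagy genes, 1 rose in each kind of sample (8.33%), near the 6.73% and 11.0% of all probe sets. In each, 1 of the 12 fell, against 3.54% and 7.74% of all probe sets. Ulk1, the kinase that starts autophagy, fell by 2.84 (SE 0.42) in hepatocytes, where the bound is -1.12. It passed lower in liver too, with 7 of 8 arrays under background. Sqstm1, the cargo receptor p62, rose in liver (1.75 ± 0.39) and differed by 0.98 ± 0.45 in hepatocytes, which did not pass.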

How the data were processed

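Per the labels, RNA of each preparation was hybridised to 1 Clariom S array. The deposited values are log2 intensities, computed by RMA, per the submitters' processing notes (version not given in the sources used here). Per the deposited values, the 2 kinds of sample appear to have been normalized separately. Of 28846 probe sets, 6640 controls were left out, and 22206 were tested. Of these, 19572 carried 1 symbol in the platform annotation, 0 several and 2634 none; the probe set with the highest mean over the 14 arrays stood for a symbol.

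limma 3.58.1 in R 4.3.3 fitted 4 group means to all arrays (lmFit, eBayes, two-sided; 10 residual degrees of freedom, Benjamini-Hochberg over all tested probe sets, threshold 0.05). The fit was tested on simulated data that gave all arrays the same spread for a probe set. That test does not cover the larger spread of the hepatocyte arrays. Members and lists were chosen with earlier results of these data known. All 42 members are accounted for, with every array given where a member passed and for Tfeb, Lamp1 and Lamp2; of other lists, up to 4 genes with the smallest p qualified. Motifs were counted with Python 3.11.15. The comparison of protein sequences was not run. The number of arrays limits the precision. Alternatives were other normalizations, filters, weights, arrays left out and a replicate block.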

Additional observations from a re-analysis of the deposited data

Results flagged for a closer look

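The diet effect differed between liver and hepatocyte preparations for 4 members in a test of the difference itself (limma): Ctss by -6.05, Laptm5 by -4.61, Hexa by -1.77 and Ctsb by -1.38 log2 units, liver effect minus hepatocyte effect. Macrophage markers differed in the same direction, and their part was not tested. In the liver groups of 4 arrays, 2 values stood apart from the others of their group. Atp6ap1 on CSAA replicate 2 was 10.50, with a gap of 0.87 of the group's range. Lipa on CDAA replicate 1 was 15.64, with a gap of 0.898 of the range. Chance marks about 1 in 20 such groups, and groups of 3 were not examined in this way.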

How the results depend on the processing

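No result reversed. In total liver the 13 members higher became 24 on the liver arrays alone and 24 with array weights; all passing probe sets went from 2279 to 4613 and 4992. The liver member median was 0.56 with arrays centred on their medians, which shifted all liver differences by -0.14 and hepatocyte differences by -0.16. Leaving out 1 array gave 11 to 12 members higher, 0 lower, 1510 to 1911 passing probe sets (1510 without CDAA replicate 1) and medians of 0.63 to 0.73.

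In hepatocytes the 25 members higher became 14 on the hepatocyte arrays alone, and passing probe sets went from 4158 to 1883 there and 6806 with array weights. Members lower numbered 1 with centring, 1 with quantile normalization, 2 with array weights and 1 with a replicate block. The member median was 1.93 with array weights. Leaving out 1 array gave 22 to 26 members higher, 0 to 2 lower (2 without CDAA replicate 1), 3039 to 5811 passing probe sets and medians of 1.19 to 1.70.

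For the difference between effects, array weights gave 18 members lower in liver, 1 higher, 2725 passing probe sets (570 as reported) and a median of -1.18, and the replicate block gave 1 higher. Leaving out 1 array gave 4 to 13 lower, 0 to 1 higher, 396 to 2265 passing and medians of -0.96 to -0.51.

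Deviations of same-numbered arrays correlated at -0.13 to 0.02 in liver and at 0.35, -0.21 and 0.26 in hepatocytes, so not every pair deviated together and the numbers were not taken to pair the samples. With the replicate block 15 members were higher in liver and 27 in hepatocytes. Across all settings 11 of 13 liver, 14 of 25 hepatocyte and 4 of 4 difference calls were kept.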
